A study of Mus musculus with 46 samples.

Results

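Public clonotypes are T cell receptors that recur in many animals or samples, in contrast to the large majority of receptors, which are found once. Here a clonotype was a V segment together with the amino acid sequence of the CDR3, the loop of the receptor β chain that is made where the V, D and J segments join. A public clonotype was one present in 5 or more of 17 libraries and built by 3 or more different CDR3 nucleotide sequences. Before counting, a rearrangement was left out of a library where its share of reads was under 5% of the share of the same V, J and CDR3 nucleotide sequence in another library, because such traces can be carried over from a neighbouring sample. This rule gave 411 public clonotypes among 122578 clonotypes, or 0.335%. They accounted for 2877 of 145873 rearrangement records, or 1.97%. Members were thus chosen by measured values, namely presence in libraries, the number of nucleotide sequences and the shares of reads in the filter, so those values are descriptions.

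The libraries were made from genomic DNA of sorted mouse T cells by PCR of rearranged TCRβ genes. The series title concerns regulatory T cells in pregnancy and experimental autoimmune encephalomyelitis (EAE), a mouse model of multiple sclerosis. Non-pregnant C57BL/6 WT mice with EAE gave cells labelled "CD8-T cells", taken in 3 libraries from the central nervous system (CNS) and in 3 from spleen and lymph nodes (periphery). The label does not spell out whether it means CD8-negative cells. DEREG mice gave all other libraries, again out of spleen and lymph nodes. In this line the Foxp3 promoter drives a fusion of the diphtheria toxin receptor and a green fluorescent protein. CD4+Foxp3+ regulatory T cells (Treg) came from EAE mice at embryonic day 18 (E18, n = 5), from 1 non-pregnant EAE mouse sample and from 1 non-pregnant naive sample. CD4+Foxp3- conventional T cells (Tcon) were represented by 4 libraries, 1 for each combination of EAE or naive with E18 or non-pregnant. The labels do not say whether libraries of one group came from separate mice, so the p-values compare libraries, not mice. A β chain table holds no transcript of Foxp3, CD4 or CD8, so the sorted cell types could not be checked against their markers.

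Each library held 278420 to 571124 reads over 1698 to 19898 rearrangements. The 3 CNS libraries held the fewest clonotypes, between 1365 and 2023 after the carry-over filter. This filter removed 5.22% of all records. In the CNS it removed 16.1% to 32.4% of the records per library, and in the periphery 4.24% to 6.21%. It removed 29.7% and 13.5% in Treg of EAE E18 mice replicates 2 and 1, and under these values in every other library outside the CNS.

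A β chain gene is assembled by cutting and joining 1 V, 1 D and 1 J segment. The ends are trimmed, and terminal deoxynucleotidyl transferase adds bases that are in no segment. Since several codons stand for the same amino acid, different joins can encode 1 CDR3. Joins with few added bases are limited to fewer outcomes and are known to recur more often among individuals.

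Some of the members in 10 libraries, and others built in different ways, are printed as examples of different joins that encode 1 CDR3. In the sequences shown here, as deposited, lower case marks bases assigned to a V, D or J segment and capitals mark bases assigned to none. Where no D was assigned, capitals can include bases of a D segment. The 5 rearrangements of TRBV3 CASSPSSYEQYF had no D assigned, and 4 of them differed in 1 base only. They are printed because these 4 held the 4 codons of proline at 1 position, and each was present in 4 or 5 libraries.

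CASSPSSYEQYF in 5 libraries: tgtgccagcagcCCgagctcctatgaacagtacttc
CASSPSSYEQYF in 4 libraries, a: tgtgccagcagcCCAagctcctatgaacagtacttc
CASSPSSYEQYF in 4 libraries, b: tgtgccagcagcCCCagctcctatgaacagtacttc
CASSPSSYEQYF in 4 libraries, c: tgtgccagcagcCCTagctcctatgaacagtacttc
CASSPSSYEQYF in 1 library: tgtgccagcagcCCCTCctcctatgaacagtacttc

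TRBV13-2 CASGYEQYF, found in 9 libraries, was among the shortest members with 9 residues. It is shown because V and J met with 0 or 1 unassigned base. Also, 1 of its 4 rearrangements was present in 6 libraries, the highest number for a member rearrangement after the carry-over filter.

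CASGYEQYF in 6 libraries: tgtgccagcggGtatgaacagtacttc
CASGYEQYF in 2 libraries: tgtgccagcggttatgaacagtacttc
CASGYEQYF in 1 library, a: tgtgccagcggAtatgaacagtacttc
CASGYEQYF in 1 library, b: tgtgccagcggctatgaacagtacttc

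A TRBV13-2 TRBJ2-1 member of 15 residues had 14 rearrangements and the largest mean share of reads. Its 2 rearrangements found in all 3 CNS libraries are shown with the one that held most reads in CNS replicate 3 and the one with the longest unassigned stretch, which was found in periphery replicate 3 and had no D assigned.

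15-residue TRBV13-2 TRBJ2-1 member in all CNS libraries, a: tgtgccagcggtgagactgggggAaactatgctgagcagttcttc
15-residue TRBV13-2 TRBJ2-1 member in all CNS libraries, b: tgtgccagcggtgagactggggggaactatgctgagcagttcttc
15-residue TRBV13-2 TRBJ2-1 member in CNS replicate 3: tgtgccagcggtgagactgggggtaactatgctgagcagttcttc
15-residue TRBV13-2 TRBJ2-1 member in periphery replicate 3: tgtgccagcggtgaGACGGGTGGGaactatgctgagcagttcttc

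TRBV16 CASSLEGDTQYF was built by 7 rearrangements, none with an assigned D. The 4 found in 3 libraries each are shown because their unassigned stretches differ in the first base and in length.

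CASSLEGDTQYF, a: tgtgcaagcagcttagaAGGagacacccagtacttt
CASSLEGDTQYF, b: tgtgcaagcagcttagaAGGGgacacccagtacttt
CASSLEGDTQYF, c: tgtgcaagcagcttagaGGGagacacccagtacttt
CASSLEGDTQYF, d: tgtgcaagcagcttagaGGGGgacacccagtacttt

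Most members sat close to the threshold on libraries. Of the 411 members, 234 were found in 5 libraries, 90 in 6, 40 in 7, 30 in 8, 13 in 9 and 4 in 10, and no member was in more than 10 of the 17. By contrast, 90.6% of all clonotypes were in 1 library. Just outside the rule, 531 clonotypes with 3 or more nucleotide sequences were in exactly 4 libraries, and 42 clonotypes in 5 or more libraries had fewer than 3 nucleotide sequences. The median of the mean share of reads was 0.00333% for members in 5 libraries and 0.00220% for those 531 clonotypes. The numbers of nucleotide sequences per member ran from 3 (69 members) to 14 (2 members), with a median of 5. All 411 members ran from the conserved cysteine to phenylalanine or tryptophan, and 364 used a single J segment.

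The members appeared 2387 times in a library, with a median of 30 reads behind each appearance. In 276 of these appearances, or 11.6%, a member rested on 1 read. Rearrangements that lie 1 base from another of the same library, V and J with at least 20 times the reads could be sequencing errors of it. They made up 2.01% of all records, and 404 of the 411 clonotypes were still members without them. With at least 2 reads required per rearrangement, 281 of the 411 were.

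The V segment used most by public clonotypes was TRBV13-2, a segment of the Vβ8 family long studied in EAE. TRBV13-2 (chromosome 6, 41121396 to 41121832, build mm10) was used by 132 members. This was 32.1% of members against 12.9% of the other clonotypes, each counted once. Within single libraries its share of members ran from 23.5% to 41.9% with a median of 33.0%, and its share of other clonotypes from 10.9% to 25.3% with a median of 13.7%. It was higher among members in 17 of 17 libraries. TRBV3 (chromosome 6, 41048394 to 41048824) came next with 55 members, or 13.4% against 8.81%, and was higher in 16 libraries. TRBV16 (chromosome 6, 41151791 to 41152230) had 35 members, or 8.52% against 5.80%, and was higher in 17 libraries. TRBV31, which lies downstream of the constant genes and joins by inversion, had 38 members (9.25% against 7.64%), and TRBV5 had 36 (8.76% against 7.98%). Both were higher among members in 12 libraries.

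Other V segments were less frequent among the members than among the other clonotypes. TRBV13-1, a close relative of TRBV13-2 in the same family, had 4 members, or 0.973% against 6.01% of the other clonotypes. TRBV19 had 13 (3.16% against 8.05%) and TRBV26 had 6 (1.46% against 4.20%). All of these were lower among members in every library. Members used 17 of the 23 V segments seen, 10 of the 13 J segments and 93 of the 291 V-J pairs. The 6 V segments with no member, among them TRBV13-3 and TRBV14, supplied at most 1.70% of the other clonotypes each. How the authors' processing divided reads among the near-identical TRBV13 and TRBV12 segments is not given in the sources used here.

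Among J segments, TRBJ2-7 was used by 117 members, or 28.5% against 18.9% of the other clonotypes, and was higher among members in 16 libraries. TRBJ2-5 was used by 89 members (21.7% against 15.4%, higher in 17 libraries) and TRBJ1-1 by 56 (13.6% against 10.8%, higher in 13). TRBJ2-2 with 9 members (2.19% against 7.39%), TRBJ2-1 with 27 (6.57% against 10.8%) and TRBJ1-2 with 6 (1.46% against 4.94%) lay furthest the other way. J cluster 2 as a whole was used by 310 members, 75.4% against 71.5%. The most common pair, TRBV13-2 with TRBJ2-7, gave 39 members, or 9.49% against 2.46%, and TRBV13-2 with TRBJ2-5 gave 30, or 7.30% against 2.14%. Both pairs were more frequent among members in all 17 libraries.

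**Figure D1:**
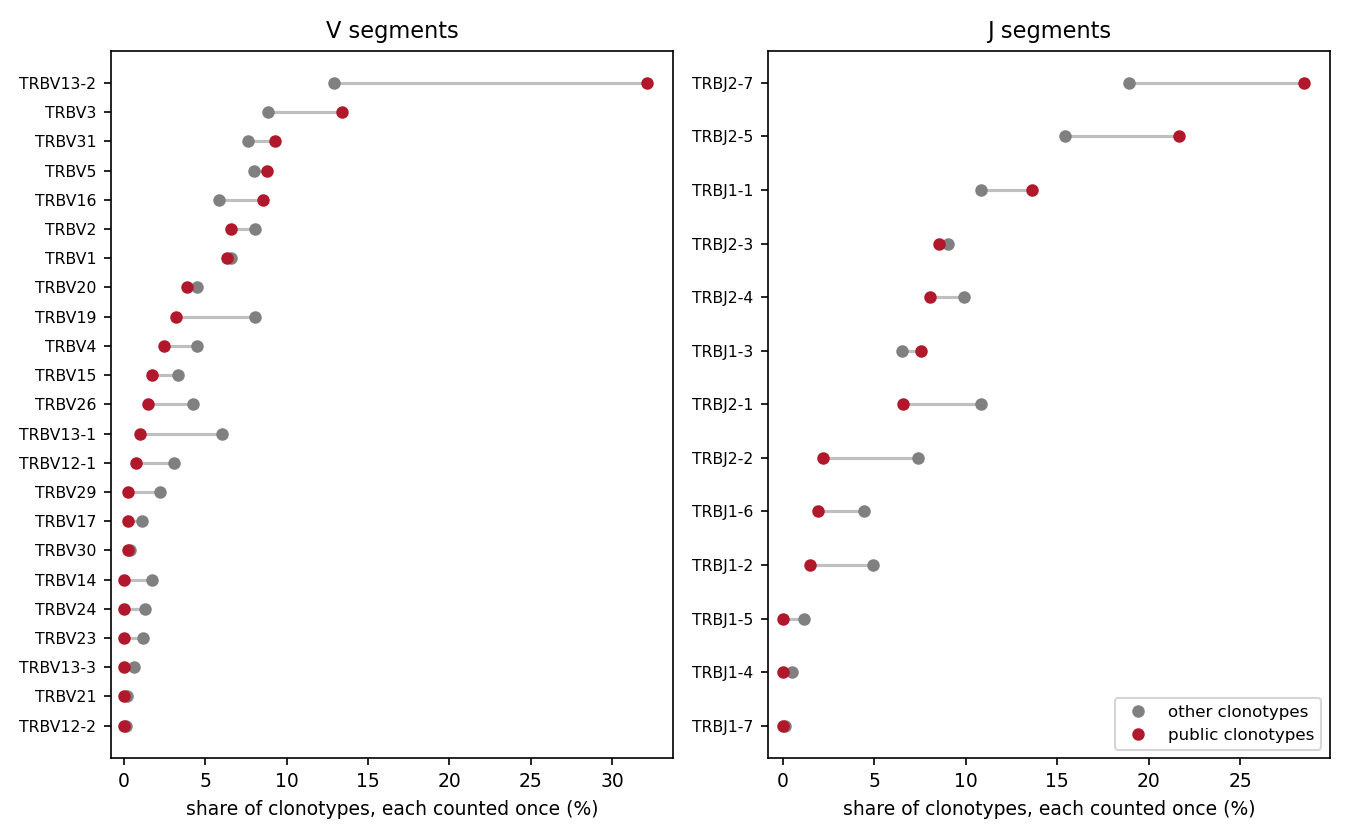
Share of clonotypes (%, each counted once) that used each V segment (left) and each J segment (right), for the 411 public clonotypes and for the other clonotypes, ordered by the number of public clonotypes. TRBV13-2 shows the widest gap among V segments, 32.1% against 12.9%, and TRBJ2-7 the widest among J segments, 28.5% against 18.9%.

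Natural killer T (NKT) cells and mucosal-associated invariant T (MAIT) cells favour some V segments and could be present in a T cell sort. V segments favoured by NKT cells (TRBV13-2, TRBV29 and TRBV1) served 159 members, 38.7% against 21.7% of the other clonotypes. Apart from TRBV13-2, TRBV29 had 1 member (0.243% against 2.19%) and TRBV1 had 26 (6.33% against 6.57%). V segments favoured by MAIT cells (TRBV13-1, TRBV13-2, TRBV13-3 and TRBV19) served 149, 36.3% against 27.5%. Apart from TRBV13-2, TRBV13-1 and TRBV19 were lower among members, and TRBV13-3 had 0. These cells also use ordinary T cell V segments, and their invariant α chains were not sequenced, so their part in the members was not tested.

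Public CDR3 loops were short. Their mean length was 13.12 ± 1.27 amino acids (SD over 411 clonotypes, range 9 to 16), against 13.91 ± 1.66 for the 122167 other clonotypes. Within libraries the difference of the members' mean from the others' was -0.753 ± 0.111 residues (SD, n = 17 libraries). It was below 0 in 17 of 17 libraries, from -1.03 to -0.568 residues. The libraries share members, so neither the SD nor this count comes from independent replicates. The 531 clonotypes in exactly 4 libraries had a mean length of 13.35 residues, between the 13.07 of members in 5 libraries and the mean of the others. The 42 clonotypes in 5 or more libraries with fewer than 3 nucleotide sequences were shorter than the members, at 12.81 residues.

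Their junctions held few added bases. In rearrangements with an assigned D, the members had a mean of 1.06 ± 1.42 inserted bases at both junctions together (SD over 1200 rearrangements), and the others had 2.73 ± 3.43 (100746 rearrangements). Few inserted bases were not particular to the members. The 531 clonotypes in exactly 4 libraries had a mean of 1.23, beside 1.14 for members in 5 libraries. The 42 clonotypes with fewer than 3 nucleotide sequences in 5 or more libraries had 1.33. No base was inserted in 42.4% of the members' rearrangements against 16.2% of the others, and 4 or more were inserted in 4.0% against 28.9%. Fewer were inserted at both junctions, with 0.443 against 1.32 between V and D and 0.616 against 1.41 between D and J. A D segment was assigned in 57.3% of member rearrangements against 72.5%. The number of bases assigned to neither V nor J, which needs no D, was 6.19 ± 3.62 for the 2093 member rearrangements and 9.15 ± 4.98 for the others. For the 42 clonotypes with fewer than 3 nucleotide sequences it was 4.04. V and J ends met or overlapped in 7.88% of member rearrangements against 3.41%, and they overlapped in 5.26% against 2.47%.

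**Figure D2:**
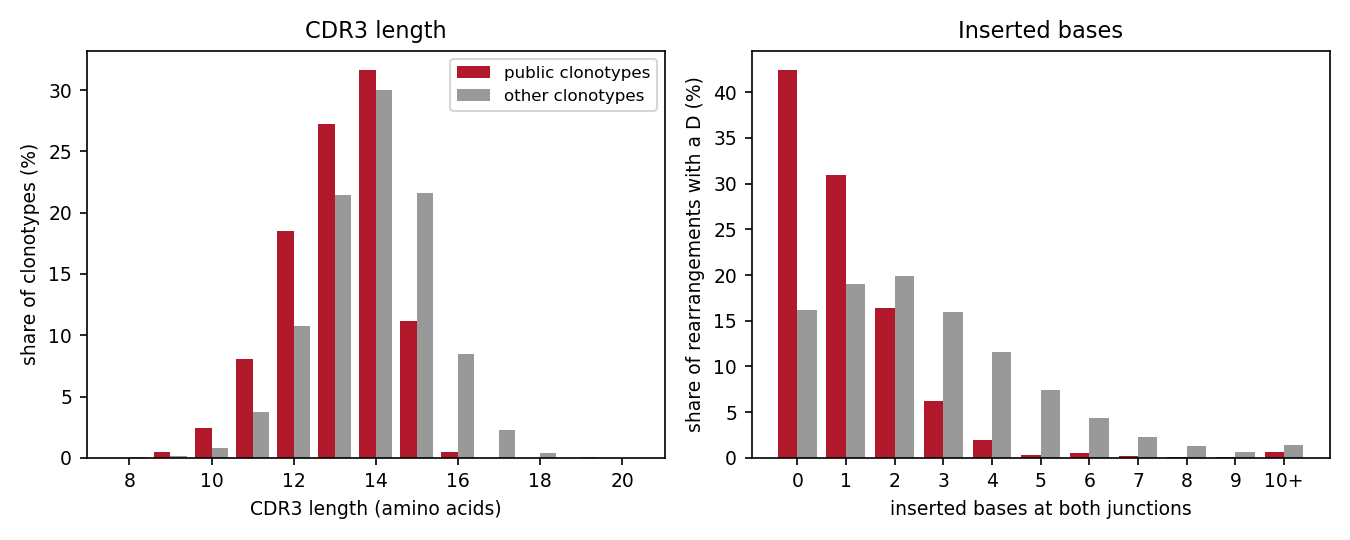
CDR3 length in amino acids (left, % of clonotypes) and inserted bases at both junctions together (right, % of rearrangements with an assigned D), as bars for public clonotypes and for the other clonotypes. Public clonotypes lie at shorter lengths, and 42.4% of their rearrangements held 0 inserted bases against 16.2% of the others.

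This held within every library. The members' mean number of inserted bases ran from 0.627 to 1.43 over the 17 libraries, and the others' from 2.60 to 3.31, so the ranges did not overlap. The difference was -1.82 ± 0.269 bases (SD, n = 17), with extremes of -1.33 in CNS replicate 1 and -2.37 in CNS replicate 2. Here too the libraries share members and are no independent replicates. CNS replicate 1 rested on 44 member rearrangements, the fewest of any library. The difference was present at each CDR3 length from 11 to 16 residues at which members had an assigned D. At 14 residues, the most common length, members had 1.10 inserted bases and others 2.53, and at 12 residues they had 1.20 and 2.12.

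**Figure D3:**
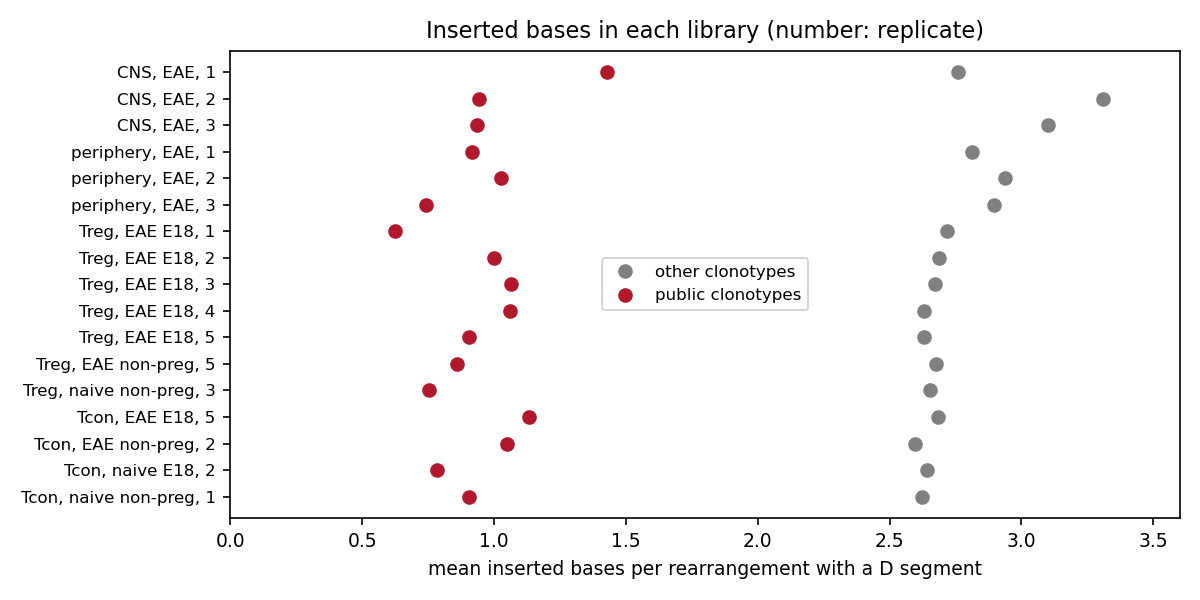
Mean number of inserted bases per rearrangement with an assigned D in each of the 17 libraries, for public clonotypes and for the other clonotypes; each label gives cells, condition and replicate. Public clonotypes lie between 0.627 and 1.43 and the others between 2.60 and 3.31 in every library.

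Among the members themselves, inserted bases varied little with the number of libraries. Members in 5 libraries had a mean of 1.14 inserted bases, those in 6 had 0.956, those in 7 had 0.981, and those in 8 to 10 had 0.994. Their mean lengths were 13.07, 13.28, 13.22 and 12.94 residues. At the level of single rearrangements the order was clearer. Of 2093 member rearrangements, 1565 (74.8%) were in 1 library, 351 in 2, 122 in 3 and 55 in 4 or more. Their mean inserted bases were 1.21, 0.581, 0.483 and 0 in that order, and V met or overlapped J in 6.52%, 10.3%, 12.3% and 21.8%. The last class had an assigned D in 17 rearrangements. For 61 members no rearrangement was present in more than 1 library after the carry-over filter. That filter removes weak copies of the same rearrangement, so the numbers of libraries per rearrangement are lower bounds. The table names carry codes whose meaning is not given in the sources used here. Of the library pairs that both held a member, 18.7% of those with different codes shared one of its rearrangements base for base, and 18.9% of those with the same code did. Both values are after the carry-over filter, which removes weak identical copies, so carry-over by code was not tested.

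The loops between the conserved ends were rich in glycine, aspartate, glutamine and leucine. Glycine made up 31.3% of the residues of member loops against 25.9% in the others, glutamine 11.1% against 8.66%, aspartate 10.9% against 7.39% and leucine 8.69% against 6.54%. Arginine (3.25% against 6.92%), threonine (3.25% against 6.43%) and proline (0.591% against 3.99%) were less frequent, and histidine, methionine and cysteine were at 0 in member loops. The residue triplet SLG occurred in 62 members (15.1% against 4.35%), GYE in 53 (12.9% against 2.18%) and GDA in 44 (10.7% against 2.46%). Loops hold codons of the V and J segments, and the part of segment use in these shares was not tested. Of the 411 members, 193 (47.0%) had another member of the same V segment and length that differed by 1 residue, in 158 pairs. How often other clonotypes of like segments and length have such a neighbour was not computed. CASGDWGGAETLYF, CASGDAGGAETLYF and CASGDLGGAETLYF, all TRBV13-2, had 5 such neighbours each.

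The 4 members in 10 libraries used 3 V segments. TRBV31 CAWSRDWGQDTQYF, with 9 nucleotide sequences, was present in 1 CNS, 2 periphery, 5 Treg and 2 Tcon libraries, at 0.00101% to 0.0315% of reads. TRBV3 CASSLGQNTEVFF, with 7 nucleotide sequences and 0 inserted bases in the 3 that had an assigned D, was at 0.000241% to 0.0265%. TRBV3 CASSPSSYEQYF was at 0.00188% to 0.0464%, highest in periphery replicate 1, and was in all 4 Tcon libraries. These 3 members stayed rare in every library that held them.

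TRBV16 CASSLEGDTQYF was different. It held 0.794% of reads in CNS replicate 1 and was not found in the other CNS libraries. In the periphery it held 0.0312%, 0.208% and 0.0566% in replicates 1, 2 and 3. In Treg of EAE E18 mice it held 0.0462%, 0.0229% and 0.0160% in replicates 1, 2 and 3 and was not found in replicates 4 and 5. It was at 0.0158% in Treg of naive mice, 0.0883% in Tcon of EAE E18 mice and 0.115% in Tcon of EAE non-pregnant mice, and was at 0 in Treg of EAE non-pregnant mice and in both naive Tcon libraries. Without the filter it had at most 5 reads in each of the libraries at 0.

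Of the 20 members in the most libraries, 9 used TRBV13-2. They included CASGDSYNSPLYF, at 0.148% in periphery replicate 3, and a TRBJ1-3 member of 14 residues at 0.140% in Treg of EAE E18 mice replicate 1. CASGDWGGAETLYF had 6 nucleotide sequences with 0 inserted bases in all of them. TRBV13-1 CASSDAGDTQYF, in 9 libraries, was 1 of the 4 members of its V segment. A TRBV1 TRBJ2-7 member of 14 residues and a TRBV13-2 TRBJ2-4 member of 15 residues, each in 8 libraries, had 13 and 14 nucleotide sequences, and TRBV13-2 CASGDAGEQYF and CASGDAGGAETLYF had 11 each.

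The members were mostly rare, and where one was abundant it was so in 1 or a few libraries. The mean share over the 17 libraries ran from 0.000380% to 0.455% with a median of 0.00435%, and 5 members exceeded 0.1%. In the median member, 48.3% of the share summed over libraries was held by 1 library, and 189 members (46.0%) had over 50% in 1 library. The filter set 273 member and library pairs to 0, with a median of 1 read and at most 221 reads removed in each. Among the 10 members with the largest mean share the part held by 1 library ran from 38.1% to 98.6%.

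**Figure D4:**
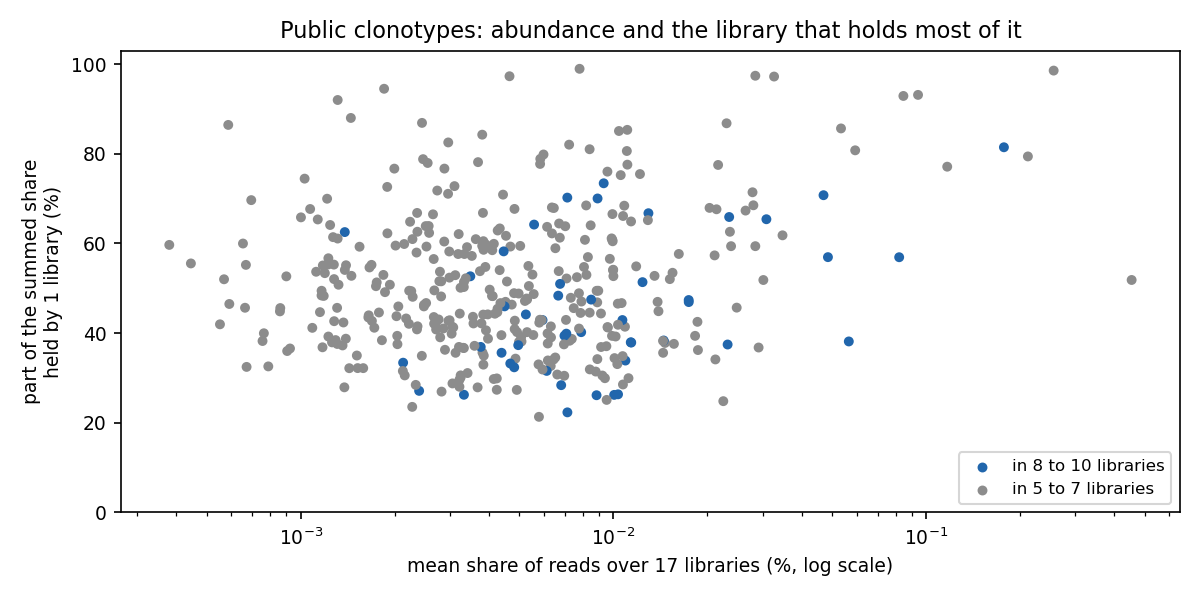
Each point is 1 of the 411 public clonotypes, by its mean share of reads over 17 libraries (x axis, %, log scale) and the part of its summed share held by 1 library (y axis, %); colour gives the number of libraries. The median of the y axis is 48.3%, and the 10 members with the largest mean share lie between 38.1% and 98.6%.

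The 15-residue TRBV13-2 TRBJ2-1 member shown among the sequences led the CNS. It held 0.277%, 2.94% and 4.01% of reads in CNS replicates 1, 2 and 3. In the periphery it was found in replicate 3, at 0.104%, and in Treg of EAE E18 mice at 0.312%, 0.0645% and 0.0177% in replicates 1, 2 and 3. It was at 0 in every other library after the filter, which removes copies of a rearrangement that is abundant elsewhere. Without the filter it was at 0.0544% in Tcon of EAE E18 mice, 0.0191% in Tcon of EAE non-pregnant mice, 0.0241% in Treg of EAE E18 mice replicate 5 and 0.0121% in periphery replicate 1. In each naive library it then had at most 2 reads. Every CNS library was above every periphery library, and the nearest were CNS replicate 1 and periphery replicate 3. The member was named for its large share in the CNS, so this order is a description and no test.

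TRBV20 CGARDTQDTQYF held 0.416% and 2.46% of reads in CNS replicates 2 and 3, and 0.141% in periphery replicate 3. Its 5 other appearances were at 0.000507% or less, but without the filter it was at 0.0718% in periphery replicate 1. TRBV13-2 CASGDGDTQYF held 1.53% in CNS replicate 3 and at most 0.169% in each of 6 other libraries. Both were thus high in 1 or 2 CNS libraries and low elsewhere.

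Several abundant members had their largest share in a Treg library of EAE E18 mice. TRBV13-2 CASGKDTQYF held 4.29% in replicate 4 and at most 0.0345% elsewhere after the filter. TRBV13-2 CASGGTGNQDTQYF held 2.86% in replicate 4, 0.568% in replicate 5 and 0.0810% in replicate 1, and it was at 0.0863% in Tcon of EAE E18 mice. TRBV16 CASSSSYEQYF held 1.49% in replicate 1, TRBV13-2 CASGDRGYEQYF 1.34% in replicate 2 and TRBV13-2 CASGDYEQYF 0.815% in replicate 5. These 5 members were led by 4 of the 5 libraries of the group. Without the filter each was found in more libraries. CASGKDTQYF was then in 11 in place of 5 and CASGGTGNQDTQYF in 10 in place of 7. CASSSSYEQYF was in 8 in place of 5, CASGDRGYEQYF in 11 in place of 6 and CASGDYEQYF in 8 in place of 6. Where the filter had set one of them to 0, it was at most 0.0268% of reads.

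The leading members of the groups with 1 library were smaller. A TRBV13-2 TRBJ2-5 member of 14 residues held 0.540% in Treg of EAE non-pregnant mice, and one of 13 residues held 0.151% in Treg of naive non-pregnant mice. In Tcon, TRBV13-2 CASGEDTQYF held 0.470% in EAE non-pregnant mice, where TRBV16 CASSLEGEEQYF held 0.367%. TRBV5 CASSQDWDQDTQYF held 0.251% in EAE E18 mice, TRBV16 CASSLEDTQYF 0.0780% in naive E18 mice and a TRBV2 TRBJ2-5 member of 15 residues 0.0591% in naive non-pregnant mice.

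Most members were found in both Treg and Tcon libraries. Of the 411, 369 were found in both, 25 in Treg and not Tcon, and 16 in Tcon and not Treg. The rule asked for 5 or more of 17 libraries, of which 7 were Treg and 4 Tcon. Presence in both is therefore largely set by the rule, and no share over other clonotypes was computed beside these counts. The libraries also differed in size, so the counts are not compared. The number of members per library ran from 36 in CNS replicate 3 to 250 in Tcon of naive non-pregnant mice, which were also the libraries with the fewest and the most clonotypes. The 3 CNS libraries together held 114 members (27.7%), the periphery libraries 291 (70.8%) and the Treg libraries of EAE E18 mice 342 (83.2%). In all 3 CNS libraries 2 members were found, in all 3 periphery libraries 9, and in all 5 Treg libraries of EAE E18 mice 0.

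To compare groups, members were found again for each library by their presence and nucleotide sequences in the other libraries, and their share was then measured in the library left out. The carry-over filter was still applied over all tables. The shares of the left-out library therefore entered the choice of members through the filter, and the tests are not wholly independent of the rule. With the filter run among the other libraries only, a setting added after seeing the data, the CNS difference given next was 10.2 points in place of 4.01. The number of members so found ran from 276 for Tcon of naive non-pregnant mice to 400 for CNS replicate 3, since a library that holds many members also decides more of them. Shares therefore rest on a different list in each library. The lists held 390 to 400 members for the CNS libraries and 332 to 365 for the periphery. In the matched pairs they held 309, 314 and 331 for EAE and 288, 295 and 276 for naive libraries. The longer list thus lay with the CNS and with EAE, and its part in the shares was not tested.

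In the CNS, public clonotypes made up 2.06%, 5.99% and 9.40% of reads (5.82% ± 3.67, SD, n = 3), and in the periphery 1.82%, 1.81% and 1.80% (1.81% ± 0.0132, n = 3). Every CNS library was above every periphery library. With members found over all libraries, CNS replicate 1 was at 2.83% against 2.93% to 3.21% in the periphery, and the groups overlapped (exact permutation p = 0.4). The difference with members found from the other libraries was 4.01 percentage points, with p = 0.1 by an exact two-sided permutation test, the smallest p that 3 against 3 libraries allow. As a share of clonotypes, members made up 1.38%, 2.22% and 1.83% in the CNS and 0.762%, 0.939% and 0.976% in the periphery, a difference of 0.919 points (p = 0.1, exact permutation test). Over the 8 share tests the Benjamini-Hochberg adjusted p of both was 0.4.

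Part of the CNS difference in reads lay in the largest member of each library. The 15-residue TRBV13-2 TRBJ2-1 member was the largest in CNS replicates 2 and 3, at 2.94% and 4.01% of reads. Without the largest member of each library, a setting chosen after seeing the data, the difference was 1.61 points (exact permutation p = 0.4). CNS replicates 2 and 3 were then still at 3.04% and 5.39%, against 1.60% to 1.65% in the periphery, and CNS replicate 1 was at 1.27%. With the largest members kept, the difference was 2.13 points without CNS replicate 3. It was 15.2 points with no carry-over filter and 1.34 points with 7 or more libraries required. The CNS libraries had fewer clonotypes (1365 to 2023, against 5638 to 11814 in the periphery) and lost more records to the filter, and the part of these in the result was not tested.

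In Treg of EAE E18 mice, public clonotypes held 2.48%, 2.94%, 1.62%, 4.78% and 2.56% of reads in replicates 1 to 5 (2.88% ± 1.17, SD, n = 5). The other Treg libraries were lower, at 1.35% (95% Wilson interval 1.32% to 1.39%) in EAE non-pregnant and 1.21% (1.18% to 1.24%) in naive non-pregnant mice. Tcon libraries of EAE mice held 1.55% (1.51% to 1.59%) at E18 and 2.32% (2.28% to 2.37%) without pregnancy. Those of naive mice held 1.42% (1.39% to 1.46%) at E18 and 1.14% (1.10% to 1.17%) without pregnancy. PCR reads without molecular identifiers are not independent molecules, so these intervals cover counting error only. The Tcon library of EAE non-pregnant mice lay within the range of the 5 Treg libraries from EAE mice at E18.

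As a share of clonotypes, members made up 0.824% to 1.28% in the 5 Treg libraries of EAE E18 mice (1.11% ± 0.180). They made up 0.752% and 0.686% in Treg of EAE and naive non-pregnant mice. In Tcon of EAE mice they made up 0.688% at E18 and 1.03% without pregnancy, and in Tcon of naive mice 0.747% and 0.616%. The 2 lowest values belonged to naive mice without pregnancy, and those libraries held 15016 and 18684 clonotypes.

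No difference between Treg and Tcon passed its test. EAE non-pregnant and naive non-pregnant mice gave 1 library of each cell type, so no spread within a group was measured there. Within the 3 conditions that held both cell types, the mean difference was 0.143 points of reads (p = 0.875) and 0.0706 points of clonotypes (p = 0.583), by exact two-sided permutation tests with 24 assignments and a smallest possible p of 0.0417. The difference in reads was 1.33 points in EAE E18, -0.971 in EAE non-pregnant and 0.0725 in naive non-pregnant mice. It turned negative, to -0.451, without the Tcon library of EAE E18 mice and to -0.159 without Treg of EAE E18 mice replicate 4.

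No difference between E18 and non-pregnant libraries passed its test either. For Tcon, each comparison set 1 library against 1, with no spread within a group to measure. Within cell type and immunization state, the mean difference was 0.349 points of reads (p = 0.5) and 0.0485 points of clonotypes (p = 0.792), by the same exact permutation test. It was 1.53 points of reads in EAE Treg, -0.769 in EAE Tcon and 0.287 in naive Tcon. Without the only Treg library of EAE non-pregnant mice it was -0.364. EAE libraries were above their naive counterparts in 3 of 3 matched pairs by reads, by 0.141, 0.128 and 1.18 points (mean 0.484, p = 0.25, the smallest p of this exact permutation test), and in 2 of 3 pairs by clonotypes (mean 0.141, p = 0.5).

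**Figure D5:**
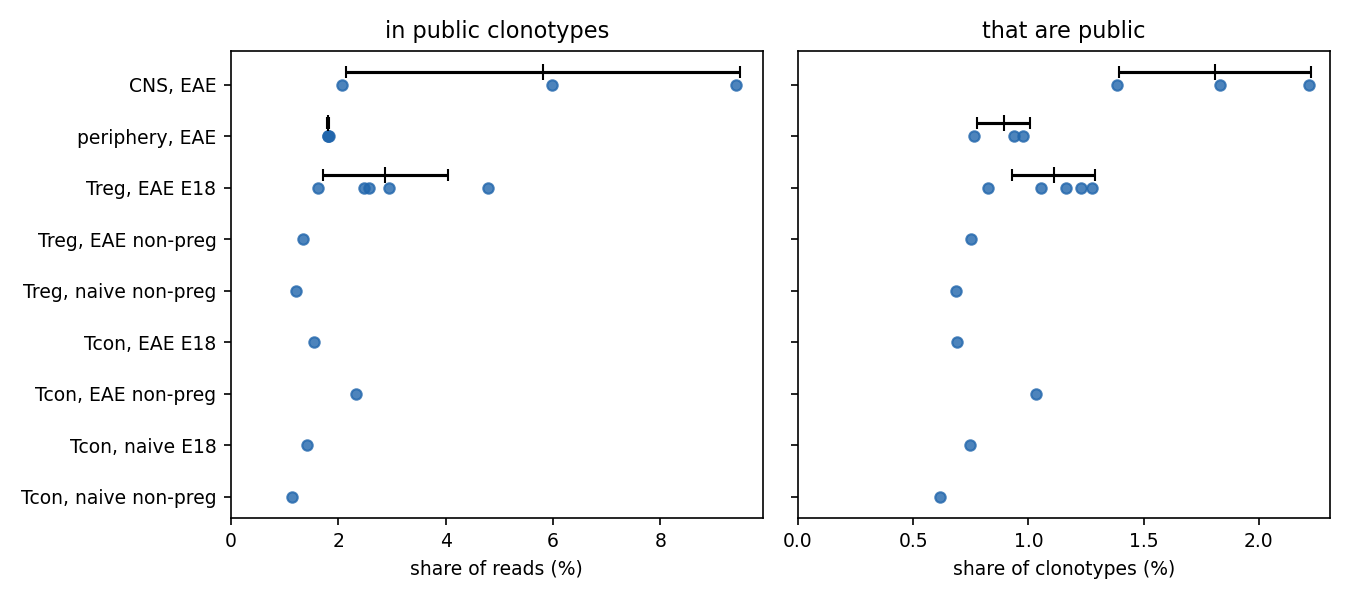
Public clonotypes as a share of reads (left, %) and of clonotypes (right, %), with members found from the other libraries. Each point is 1 library, and the bars above the points give mean and SD for the 3 groups with more than 1 library; CNS libraries lie at 2.06% to 9.40% of reads against 1.80% to 1.82% in the periphery, and CNS replicate 1 lies below 4 of 5 points for Treg from EAE mice at E18.

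Single clonotypes were then compared between groups, over clonotypes found in at least 3 of the libraries compared. For CNS against periphery, 109 clonotypes passed this filter, 47 of them members. Members pass it more easily because the rule asked for presence. edgeR's quasi-likelihood test called 0 of these 47 members and 0 of the 109 clonotypes at an adjusted p under 0.05 (0% in either direction). At an unadjusted p under 0.05 there were 13 clonotypes, 7 of them members. DESeq2 called 10 of the 34 members it gave an adjusted p, against a background of 23.9% of all clonotypes. All 17 calls, members or not, were lower in the CNS. A clonotype absent from the CNS could pass the filter through the 3 periphery libraries alone. The CNS libraries also held fewer clonotypes, so no direction is read from these calls.

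For Treg against Tcon, edgeR called 0 of 382 members tested and 0 of 1422 clonotypes (0%). Unadjusted p-values under 0.05 numbered 111, of which 18 were members. DESeq2 called 6 of 183 members (background 7.71%), 3 in each direction. For E18 against non-pregnant, edgeR called 0 of 374 members and 0 of 1427 clonotypes (0%), with 62 unadjusted, 15 of them members. DESeq2 called 1 of 260 members (background 0.977%). For EAE against naive, edgeR called 0 of 285 members and 0 of 877 clonotypes, DESeq2 called 0 (0%), and no unadjusted p by edgeR was under 0.05. The fitted log2 change was above 0 in 22 of 47 members for CNS against periphery, 206 of 382 for Treg against Tcon, 212 of 374 for E18 against non-pregnant and 101 of 285 for EAE against naive. Its median over members was -0.20, 0.23, 0.32 and -1.33, beside 0.37, 0.13, 0.41 and -1.62 over all clonotypes tested. Many clonotypes were absent from one side, and their fitted changes depend on the prior count. In simulated tables with the spread of the real clonotypes, 0% of 16-fold changes were called in each of the 4 comparisons, so these counts of 0 say little about whether single members differed.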

How the data were processed

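Each deposited table gives the reads of every CDR3 rearrangement as a raw count and as a fraction of the library's reads, per the file headers. Segment borders count from 0, which was checked against each segment's consensus. Genome build mm10 is named in the submitters' processing notes; the assigning program is not given in the sources used here. Positions of segments come from RefSeq on the same build. The labels list 46 samples, of which 17 were analysed and 29 were not analysed here.

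Members and lists were chosen with earlier results of these data known. The named members were the 20 in the most libraries, the 10 with the largest mean share, the 5 with the most nucleotide sequences, the largest of each group, members called in a fit, and the 5 V and 3 J segments with most members or differing most. Members whose CDR3 has 15 residues or reads like a run of bases are named by segments and length. Sequences and neighbouring members were chosen after their values were seen. Shares were tested by exact permutation within strata. For each left-out library, the carry-over filter used all tables; this was chosen after seeing values, and the other setting is given in the closing section. Clonotype counts were tested with edgeR 4.0.16 (R 4.3.3, TMM, quasi-likelihood, Benjamini-Hochberg), where groups with 1 library were assumed to vary like the others. DESeq2 1.42.0 was the alternative. The member rule and tests were tested on simulated data. Python 3.11.15, pandas 2.3.3, numpy 2.4.6 and matplotlib 3.10.9 were used. A count of 0 allows up to 3 reads where the carry-over filter removed none. Same-numbered CNS and periphery libraries correlated at 0.102, -0.353 and 0.0194, and differently numbered ones at -0.334 to 0.306. The carry-over filter removes traces of a clone that is abundant in another library. These values therefore cannot decide whether the numbers pair the libraries.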

Additional observations from a re-analysis of the deposited data

Results flagged for a closer look

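The 4 results here are differences whose sign was opposite in matched strata; the difference between strata was not tested. Pairs in which both strata had 1 library on each side were left out, a limit set after seeing the values. In EAE E18 mice, each Treg library exceeded the Tcon library in its share of reads in public clonotypes, by 1.33 points on average, while in EAE non-pregnant mice the Treg library was lower, by -0.971 points. In the share of clonotypes these differences were 0.422 and -0.280 points. Read the other way, E18 exceeded non-pregnant libraries in EAE Treg by 1.53 points of reads and 0.358 points of clonotypes, and in EAE Tcon the differences were -0.769 and -0.344. Both readings rest on the same libraries: 1 Tcon library each of EAE E18 and EAE non-pregnant mice, and 1 Treg library of EAE non-pregnant mice.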

How the results depend on the processing

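The number of public clonotypes was 942 with presence in 4 or more libraries and 87 with 7 or more, and lay between 281 and 616 under the other settings. Inserted bases (-1.89 to -1.71) and CDR3 length (-0.810 to -0.648 residues) stayed lower in members under the 7 alternatives run for each, one of which, leaving out error-like rearrangements, was added after seeing the data. The CNS difference stayed above 0 under all alternatives run, from 1.34 to 15.2 points of reads, but its separation did not always hold. CNS and periphery overlapped with members found over all libraries (p = 0.4), and the exact permutation p was 0.3 with 4 or more libraries and 0.2 at a 1% threshold. With the filter run among the other libraries only the difference was 10.2. It was 4.01 (exact permutation p = 0.25) with the replicate block.

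For Treg against Tcon, the difference in reads turned to -0.00333 at a carry-over threshold of 1%, -0.257 with 7 or more libraries, -0.0547 with 2 or more nucleotide sequences and -0.149 without each library's largest member. The difference in clonotypes turned to -0.00128 with at least 2 reads. For E18 against non-pregnant, reads turned to -0.122 with 7 or more libraries and clonotypes to -0.0151 with members found over all libraries. With 1 library left out, Treg against Tcon ran from -0.451 to 0.629 points of reads and -0.0351 to 0.223 of clonotypes. E18 against non-pregnant ran from -0.364 to 0.807 and -0.123 to 0.213, and CNS against periphery from 2.13 to 5.74 and 0.634 to 1.02. EAE against naive ran from 0.213 to 0.738 and 0.00774 to 0.192. The clonotype difference between E18 and non-pregnant was -0.00650 without Treg of EAE E18 mice replicate 1 and -0.00311 without the Tcon library of naive non-pregnant mice. The reads difference between Treg and Tcon was -0.159 without Treg of EAE E18 mice replicate 4. The cause of these reversals was not tested, and none of the main differences passed its test. DESeq2 called 10 members in CNS against periphery, 6 in Treg against Tcon and 1 in E18 against non-pregnant, where edgeR called 0. With 1 library for 6 of 9 groups and an unknown number of cells behind each, precision is limited by libraries, not by reads.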
